A study of Rattus norvegicus with 6 samples.

Results

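Alcohol and aldehyde dehydrogenases of the rat renal cortex are described here across animals given benzyl acetate and animals given its vehicle. The 10 genes were listed by name, as enzymes that could oxidise benzyl alcohol and benzaldehyde: Adh1, Adh5, Aldh1a1, Aldh1a7, Aldh1b1, Aldh2, Aldh3a2, Aldh7a1, Aldh8a1 and Aldh9a1. Probes were assigned by matching the transcript accession printed on the array to a RefSeq gene table. Of the 10 genes, 9 had probes, 18 probes in all out of 61537 on the array. Adh1 is listed in that table as Adh1c, with Adh1 as a synonym. No probe was matched to Aldh1a7, and it was not analysed here.

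Renal cortex RNA from 6 male Sprague-Dawley (Crl:CD(SD)) rats, bought at 5 weeks of age, was hybridised to 1-colour Agilent arrays, 1 array for each animal. For 4 weeks 3 rats received benzyl acetate at 1000 mg/kg/day and 3 received the corn oil vehicle. The animals were intact, and the design holds a single dose and a single time.

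Benzyl acetate is an ester that esterases split into acetate and benzyl alcohol. Alcohol dehydrogenases, cytosolic zinc enzymes that use NAD, oxidise the alcohol to benzaldehyde, and aldehyde dehydrogenases oxidise that to benzoic acid, which is conjugated with glycine and excreted. Several of these dehydrogenases are also known for other substrates, from retinaldehyde to intermediates of lysine breakdown and carnitine synthesis. The proximal tubule is rich in many of these enzymes.

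The sequence before the gene start is shown for the 3 genes that the results below turn on most. These are Adh1, the classical alcohol dehydrogenase, Aldh3a2, the only gene with a probe that separated the groups, and Aldh1b1. Of all dehydrogenase probes the brighter Aldh1b1 probe varied most between animals, and the dimmer Aldh1b1 probe did not share this. The runs are given 5′ to 3′ on the gene's strand, from RefSeq on the GRCr8 build, with matches to any searched motif in capitals. They come from windows of 250 bases before the start that the promoter table uses. For Aldh3a2 that start lies inside the annotated gene, so that 114 bases of its window do too, and the 136 bases outside the gene are shown. Adh1 lies on the plus strand at chr2:229470453-229470702, Aldh3a2 on the minus strand at chr10:46448450-46448585 and Aldh1b1 on the plus strand at chr5:64858750-64858999.
Adh1: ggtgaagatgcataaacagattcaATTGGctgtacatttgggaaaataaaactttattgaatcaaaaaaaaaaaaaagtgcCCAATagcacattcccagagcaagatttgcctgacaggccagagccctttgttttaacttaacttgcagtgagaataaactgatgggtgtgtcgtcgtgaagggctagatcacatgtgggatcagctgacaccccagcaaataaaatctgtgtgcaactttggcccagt
Aldh3a2: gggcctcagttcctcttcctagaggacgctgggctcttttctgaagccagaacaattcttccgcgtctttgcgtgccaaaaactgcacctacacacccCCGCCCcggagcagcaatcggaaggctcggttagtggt
Aldh1b1: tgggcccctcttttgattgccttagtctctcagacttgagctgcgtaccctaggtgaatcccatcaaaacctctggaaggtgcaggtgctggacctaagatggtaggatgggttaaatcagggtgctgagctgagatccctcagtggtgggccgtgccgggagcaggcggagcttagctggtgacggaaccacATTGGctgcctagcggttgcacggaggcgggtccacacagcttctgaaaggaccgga

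The motifs searched, on both strands, were CCAAT (the CCAAT box), GGGCGG (the GC box), TATAAA (the TATA box) and TGACNNNGC (the core of the antioxidant response element). Promoters of 8 of the 9 measured genes were in the table, and the entry of Aldh2 was not. CCAAT was found in 7 of these 8 windows, Aldh8a1 being the one without it, against 34.0% of 33469 windows of the same length. GGGCGG was found in 4 of the 8, those of Adh5, Aldh3a2, Aldh7a1 and Aldh9a1, against 30.5% of all windows. The window of Aldh1a1 lies wholly inside the annotated gene, and the CCAAT match of Aldh3a2 is in the part of its window that does. The windows of Adh1 and Aldh1b1 held CCAAT matches without a GGGCGG match. The motifs TATAAA and TGACNNNGC were in none of the 8, against 12.9% and 10.1% of all windows. No matched motifs overlapped each other in the 3 windows shown.

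Between 69.0% and 69.8% of probes were well above background on the benzyl acetate arrays, and between 70.5% and 72.0% on the vehicle arrays. The 75th percentile of the signal, to which each array was scaled, ran from 883 to 990 with benzyl acetate and from 1003 to 1057 with vehicle. Vehicle replicate 1 was on a slide of its own and the other 5 arrays shared a second slide. That animal and its slide therefore cannot be told apart. By the brightest probe, 7 of the 9 dehydrogenase genes were lowest on vehicle replicate 1, while 20.8% of 12270 genes were lowest there. Over all 18 dehydrogenase probes, 10 were lowest there, against 20.5% of tested probes. The brightest probe of Aldh1a1 was highest on that array. The whole set of 12 proximal tubule markers was well above background, with a summed signal of 2773 to 3042 times the 75th percentile with benzyl acetate and 2699 to 2805 times with vehicle. Markers of the collecting duct summed to 186 to 231 with benzyl acetate and 255 to 296 with vehicle, and endothelial markers to 33.9 to 36.4 with benzyl acetate and 29.0 to 32.3 with vehicle. T and NK cell markers, dim throughout, summed to 1.76 to 2.10 with benzyl acetate and 2.12 to 4.75 with vehicle. These 3 sums did not overlap between the groups, and 0 of the single markers in the 3 lists passed in limma. Sums did overlap for the other lists read: proximal tubule, thick ascending limb, distal convoluted and connecting tubule, podocyte, macrophage, fat cell, hepatocyte and adrenal cortex. Among all tested single probes, 12.7% had groups that did not overlap. In such bulk tissue, fewer cells of a type and less RNA per cell cannot be told apart, and the part of these markers in the results below was not tested.

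No dehydrogenase probe passed the test. Values are log2 of the background-subtracted signal over that 75th percentile, so a value of 0 is a signal equal to that percentile, and levels of different probes cannot be set against each other. All 18 probes were well above background on all 6 arrays. In limma, fitted over 42355 probes with Benjamini-Hochberg adjustment, 0 of the 18 passed the 0.05 threshold as higher and 0 as lower, and over all probes the share called was 0.0% in each direction. Adjusted p-values of the 18 probes were 0.738 to 0.998. At an unadjusted p under 0.05 there was 1 of the 18, against 6.69% of all probes. The 3 benzyl acetate arrays lay wholly to the same side of the 3 vehicle arrays for 1 of the 18 probes, against 12.7% of all probes. Neither share stands above the background of the array.

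What the data bound is how large a difference could have been. The 95% interval of the difference lay inside a 1.5-fold change either way for 14 of the 18 probes, against 74.7% of all probes, and inside a 2-fold change for 16. The 1.5-fold count is close to that of the array as a whole. No such share was taken for the 2-fold count or for the count of genes that follows. For 6 genes, Adh5, Aldh1a1, Aldh2, Aldh7a1, Aldh8a1 and Aldh9a1, every probe was inside 1.5-fold. By the brightest probe 6 genes were higher and 3 lower with benzyl acetate. The median log2 difference of the 9 genes was 0.043, against 0.0014 for all 12276 tested genes with a symbol. With the slide as a block, which leaves the comparison to the 5 arrays of the second slide, the median of the 9 genes was 0.0062, and without vehicle replicate 2 it was 0.0967.

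**Figure D1:**
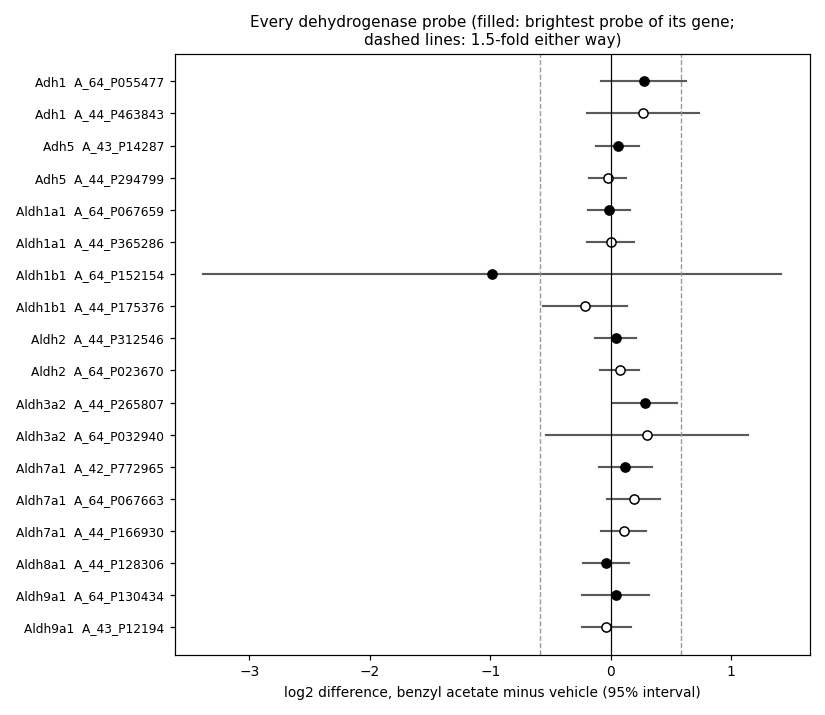
Log2 difference, benzyl acetate minus vehicle, with its 95% interval (limma, 3 arrays per group) for each of the 18 probes; filled points are the brightest probe of a gene and dashed lines mark a 1.5-fold difference either way. The intervals of 14 probes lie between the dashed lines, and those of both Adh1 probes, of the brighter Aldh1b1 probe and of the dimmer Aldh3a2 probe do not.

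The alcohol dehydrogenases come first in the route. Adh1, the class I enzyme that oxidises ethanol and other primary alcohols, had log2 signals of 5.26, 5.65 and 5.27 on the benzyl acetate arrays and 4.97, 5.10 and 5.30 on the vehicle arrays. Benzyl acetate replicate 2 was the highest, vehicle replicate 1 the lowest, and vehicle replicate 3 lay above the other 2 benzyl acetate arrays, so the groups overlapped. The mean was 5.39 ± 0.22 with benzyl acetate and 5.12 ± 0.17 with vehicle (SD, n = 3 each), a difference of 0.27 (95% interval -0.078 to 0.62; adjusted p = 0.78 in limma). A second Adh1 probe gave nearly the same difference, 0.27 (-0.20 to 0.73), and in both the upper bound was past 1.5-fold.

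The Adh1 difference moved with single arrays, both ways. Within the second slide it was 0.19 (-0.21 to 0.60) by the brightest probe and 0.089 (-0.30 to 0.48) by the second probe. Without benzyl acetate replicate 2 the brightest probe differed by 0.14, and without vehicle replicate 3 it differed by 0.36 and the second probe by 0.42. The RefSeq table also lists a transcribed pseudogene, Adh1-ps1, and whether the Adh1 probes read it was not tested.

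Adh5, the class III enzyme that oxidises the glutathione adduct of formaldehyde and reduces S-nitrosoglutathione, was among the steadiest of the set. Its brightest probe had log2 signals of 4.83, 4.80 and 4.82 with benzyl acetate and 4.65, 4.83 and 4.79 with vehicle. Apart from a low vehicle replicate 1, all arrays lay within a few hundredths of each other. The difference was 0.059 (-0.12 to 0.24), and 0.0062 within the second slide. A dimmer probe had 0.83, 0.82 and 0.81 with benzyl acetate and 0.85, 0.80 and 0.89 with vehicle, a difference of -0.027 (-0.18 to 0.12). The total range of that probe over the 6 animals was 1.06-fold, and 1.85% of tested probes had an SD within groups as small or smaller.

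Of the aldehyde dehydrogenases, Aldh2 is the mitochondrial enzyme known for clearing acetaldehyde. Its brighter probe had log2 signals of 6.17, 6.11 and 6.11 with benzyl acetate and 6.001, 6.15 and 6.11 with vehicle, a difference of 0.043 (-0.13 to 0.21). The groups overlapped and spanned 1.12-fold in all. Within the second slide, without the low vehicle replicate 1, the difference was 0.0007. The other probe differed by 0.074 (-0.090 to 0.24), and by 0.062 within the second slide. In fold terms the intervals of the brighter and the dimmer probe were 0.916 to 1.16 and 0.939 to 1.18.

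For Aldh1b1, the mitochondrial paralog closest to Aldh2, the brighter probe varied widely from animal to animal. That probe had log2 signals of -2.68, -2.51 and -3.47 with benzyl acetate and -1.51, -0.13 and -4.08 with vehicle. As linear signals these were 154, 174 and 79.6 with benzyl acetate and 353, 962 and 62.5 with vehicle. Both the highest and the lowest animal were in the vehicle group, 15.5-fold apart, and the 3 benzyl acetate animals lay between them. The mean was -2.89 ± 0.51 with benzyl acetate and -1.90 ± 2.01 with vehicle (SD, n = 3 each), and the difference of -0.98 had an interval of -3.38 to 1.41. The pooled SD within groups was larger than for 99.65% of tested probes.

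The Aldh1b1 difference rested on single vehicle animals. It was -2.07 without vehicle replicate 3 (adjusted p = 0.504 in limma) and -0.094 without vehicle replicate 2, and -0.78 within the second slide. The other probe of Aldh1b1 did not share the pattern. It had -3.34, -3.37 and -3.00 with benzyl acetate and -2.82, -3.08 and -3.17 with vehicle, a total range of 1.46-fold and a difference of -0.21 (-0.56 to 0.13), and of -0.11 within the second slide. Both probes carry the same transcript accession, and which of them follows the transcript was not tested.

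By root mean square distance between log2 profiles, each centred on its mean over the 6 arrays, the 3 genes nearest to the brighter Aldh1b1 probe were Slco1a5, Slco1a3 and Eaf2. Slco1a5 and Slco1a3 encode organic anion transporting polypeptides and lie on chromosome 4, Eaf2 encodes a transcription elongation factor partner and lies on chromosome 11, and Aldh1b1 lies on chromosome 5. Their distances were 0.27, 0.28 and 0.41 log2, where the Aldh1b1 profile itself departed from flat by 1.29. Slco1a3 had 1.93, 2.49 and 1.33 with benzyl acetate and 3.29, 3.97 and 0.68 with vehicle. The choice by nearness builds in a shared order of the arrays. In each of the 3 genes vehicle replicate 2 was highest and vehicle replicate 3 lowest, as for the brighter Aldh1b1 probe. None differed between the groups beyond this spread, with differences of -0.87 (-3.06 to 1.32) for Slco1a5, -0.73 (-2.85 to 1.39) for Slco1a3 and -0.65 (-2.74 to 1.45) for Eaf2.

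**Figure D2:**
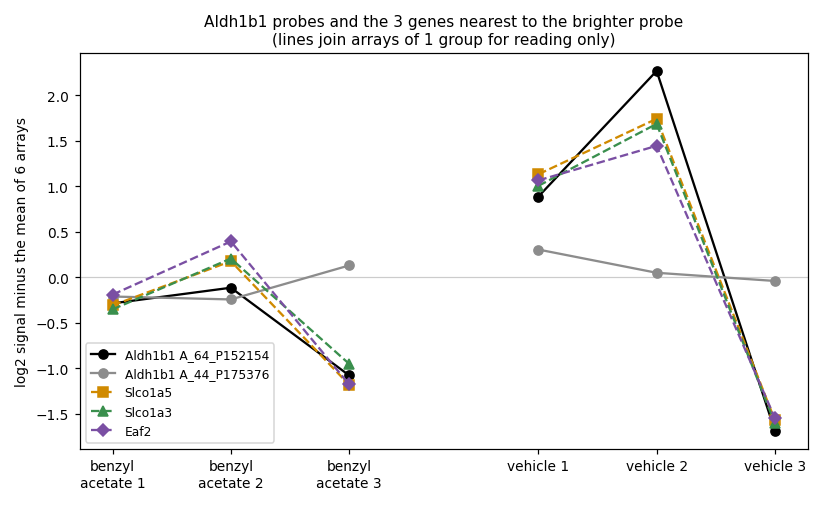
Log2 signal of each array minus the mean of the 6 arrays for both Aldh1b1 probes (solid) and for Slco1a5, Slco1a3 and Eaf2 (dashed), the 3 genes nearest to the brighter Aldh1b1 probe. All but the dimmer Aldh1b1 probe are highest in vehicle replicate 2 and lowest in vehicle replicate 3, and the dimmer probe stays within a 1.46-fold range. The 3 genes were chosen by nearness, which builds in their likeness to the brighter probe.

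Aldh1a1, the cytosolic retinaldehyde dehydrogenase that makes retinoic acid, was flat. Its brighter probe had log2 signals of 6.89, 6.97 and 6.89 with benzyl acetate and 7.02, 6.88 and 6.90 with vehicle, with overlapping groups. The difference was -0.018 (-0.19 to 0.16), which in fold terms bounds it between 0.875 and 1.11. The second probe differed by 0.0013 (-0.19 to 0.20). Within the second slide the probes stood at 0.026 and -0.020, so the sign of each was turned.

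Aldh3a2, the microsomal fatty aldehyde dehydrogenase that also acts in sphingosine and phytol breakdown, was the only gene with a probe that separated the groups. The brighter probe had log2 signals of 3.29, 3.15 and 3.23 with benzyl acetate and 2.77, 2.91 and 3.14 with vehicle. The lowest benzyl acetate array exceeded the highest vehicle array by little, 3.15 against 3.14. The mean was 3.22 ± 0.069 with benzyl acetate and 2.94 ± 0.18 with vehicle (SD, n = 3 each), a 1.22-fold difference of 0.28 log2 (0.017 to 0.55) that did not pass in limma (unadjusted p = 0.0404, adjusted p = 0.738). Over the alternatives its adjusted p ran from 0.333 with no filter on dim probes to 0.907. Within the second slide the difference was 0.20 (-0.066 to 0.47), and without vehicle replicate 3 it was 0.38.

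The dimmer Aldh3a2 probe did not settle the matter. It had -2.20, -2.21 and -2.89 with benzyl acetate and -3.40, -2.52 and -2.28 with vehicle, with groups that overlapped widely. Its difference of 0.30 (-0.54 to 1.14) was -0.036 within the second slide, without the low vehicle replicate 1.

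Aldh7a1, also called antiquitin, oxidises the semialdehyde formed in lysine breakdown. Its brightest probe had log2 signals of 7.55, 7.49 and 7.70 with benzyl acetate and 7.35, 7.49 and 7.55 with vehicle. Benzyl acetate replicate 3 was highest and vehicle replicate 1 lowest, and the groups overlapped. The difference was 0.12 (-0.10 to 0.34), and 0.064 within the second slide. The other probes of the gene differed by 0.19 (-0.029 to 0.41) and 0.11 (-0.083 to 0.30), and by 0.16 and 0.097 within the second slide, so the 3 probes pointed the same way, none past the threshold.

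Aldh8a1, which oxidises aminomuconate semialdehyde in the kynurenine pathway, had a single probe. Its log2 signals were 2.93, 2.88 and 2.90 with benzyl acetate and 2.88, 2.88 and 3.07 with vehicle. The benzyl acetate arrays lay within a 1.03-fold range and vehicle replicate 3 alone stood higher. The difference was -0.037 (-0.23 to 0.15), with -0.070 within the second slide and 0.026 without vehicle replicate 3.

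Aldh9a1, which oxidises trimethylaminobutyraldehyde on the way to carnitine, had log2 signals of 6.10, 6.22 and 6.21 with benzyl acetate and 5.93, 6.33 and 6.15 with vehicle by its brighter probe. Vehicle animals held both extremes. The difference was 0.039 (-0.24 to 0.32), and a dimmer probe gave -0.036 (-0.24 to 0.17). The brighter probe stood at -0.062 within the second slide and at 0.13 without vehicle replicate 2, and the dimmer probe at -0.064 within the second slide and 0.020 without benzyl acetate replicate 1. For 3 of the 8 genes with several probes, Adh5, Aldh1a1 and Aldh9a1, the probes differed in sign, each with differences under 0.06 log2.

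**Figure D3:**
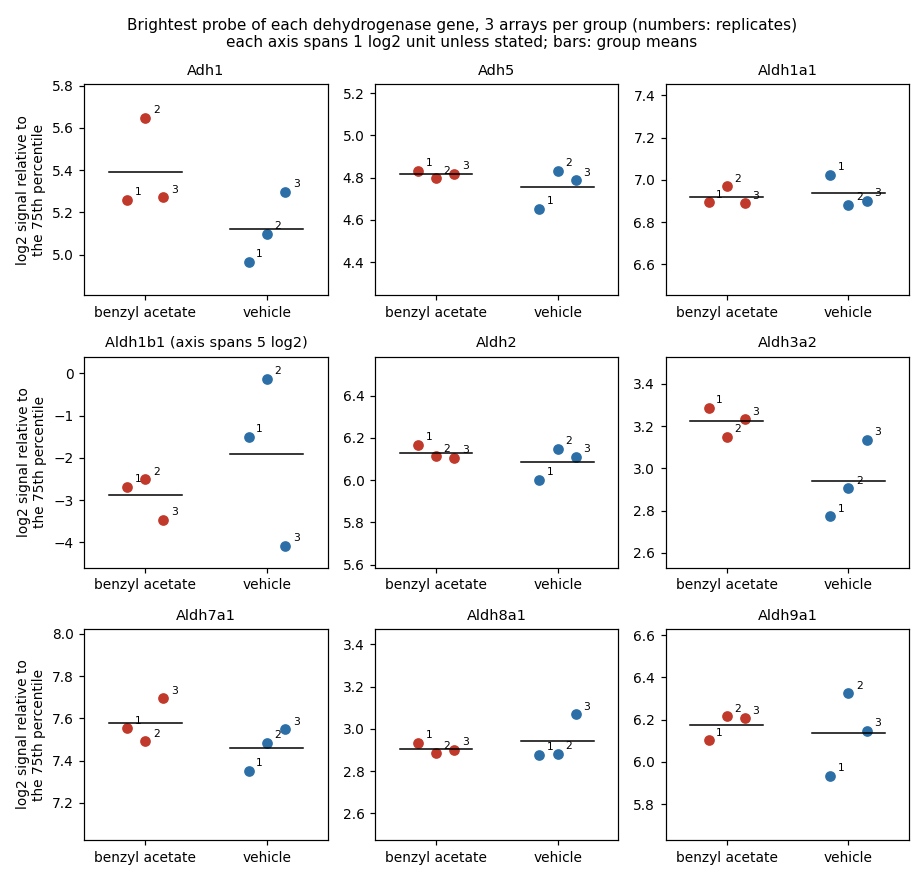
Log2 of the signal over the array's 75th percentile for the brightest probe of each of the 9 genes, with 1 point per array, replicate numbers beside the points and bars at the group means. Every axis spans 1 log2 unit except that of Aldh1b1, which spans 5; only for Aldh3a2 do the 3 benzyl acetate points lie above all 3 vehicle points.

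The genes that surround these enzymes in metabolism were read from 8 lists, by the brightest probe of each gene. Of 125 distinct genes tested, 0 passed in limma and 9 had an unadjusted p under 0.05, which is 7.2% against 6.69% of all probes. The lowest adjusted p was 0.234. List medians of the log2 difference ran from -0.029 to 0.065. In any list, at most 2 genes had separate groups as higher and at most 2 as lower. Groups did not overlap for 12.7% of all probes.

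Among the other alcohol and aldehyde dehydrogenases, 14 of 17 were tested, 8 higher and 6 lower with none past the threshold, and the median log2 difference was 0.065. Adh6 had the highest difference, 0.31 (-0.25 to 0.86), and Adh4, the class II alcohol dehydrogenase, the lowest, -0.45 (-0.84 to -0.053; adjusted p = 0.723 in limma). Both were dim, with vehicle means of -4.31 for Adh6 and -4.62 for Adh4. Aldh4a1, which oxidises the semialdehyde of proline breakdown and had the highest signal, differed by -0.13 (-0.37 to 0.11).

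Other alcohol and carbonyl oxidoreductases, a list of aldo-keto reductases, carbonyl reductases, oxidases and related enzymes, had 28 tested genes with 13 higher, 15 lower and none past the threshold. The median was -0.012. Cryz, the quinone reductase zeta-crystallin, was the lowest, at -1.33 (-1.59 to -1.07; adjusted p = 0.234 in limma), with 2.66, 2.58 and 2.57 with benzyl acetate and 3.76, 3.92 and 4.13 with vehicle. With normexp background correction Cryz passed (adjusted p = 0.0219), the only list gene to do so in any alternative run. Akr1c15, an aldo-keto reductase, was the highest, at 0.92 (-0.38 to 2.21), and Hao2, a peroxisomal hydroxy acid oxidase and the brightest, differed by -0.048 (-0.26 to 0.16).

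Retinoid handling, the pathway of Aldh1a1, had 19 tested genes, 10 higher and 9 lower, with a median of 0.011 and none past the threshold. Rbp4, the plasma carrier of retinol, was the highest at 0.80, with an interval from -2.53 to 4.14, and it varied between animals, with 2.22, 4.93 and -0.43 with benzyl acetate and 0.95, 0.71 and 2.65 with vehicle. Bco1, which cleaves carotene, was the lowest at -0.77 (-1.34 to -0.21; adjusted p = 0.695 in limma) and dim, with separate groups.

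Lysine breakdown and carnitine synthesis, the pathways of Aldh7a1 and Aldh9a1, had 11 tested genes with a median of 0.016. The extremes were Pipox, pipecolic acid oxidase, at 0.62 (-0.44 to 1.68) and Aadat, the aminoadipate aminotransferase, at -0.43 (-1.63 to 0.77), and the brightest, the glutaryl-CoA dehydrogenase Gcdh, differed by 0.18 (-0.051 to 0.41). The kynurenine pathway, which Aldh8a1 serves, had 10 tested genes with a median of -0.0086. Qprt, which makes nicotinate mononucleotide from quinolinate, was the lowest at -0.37 (-0.71 to -0.037; adjusted p = 0.729 in limma), with separate groups, while Acmsd, the decarboxylase just before Aldh8a1, was the highest at 0.31 (-0.096 to 0.72). Naprt, the brightest, differed by -0.0044 (-0.22 to 0.22).

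Fatty aldehyde, phytol and sphingosine breakdown, the setting of Aldh3a2, had 13 tested genes and a median of 0.0099. Gsta4, a glutathione transferase for lipid aldehydes, was the lowest at -0.33 (-0.53 to -0.13; adjusted p = 0.664 in limma), with 6.30, 6.32 and 6.38 with benzyl acetate and 6.80, 6.62 and 6.58 with vehicle, groups that did not overlap. Ephx2, soluble epoxide hydrolase, was the highest at 0.96 (-1.57 to 3.48), and the brightest, Gsta1, differed by 0.016 (-0.24 to 0.27).

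Formaldehyde and S-nitrosoglutathione handling, around Adh5, had 10 tested genes and a median of -0.029. Dmgdh, dimethylglycine dehydrogenase, was the highest at 0.16 (-0.056 to 0.39), Gclc, the catalytic subunit of glutamate-cysteine ligase, the lowest at -0.59 (-2.42 to 1.24), and Esd, S-formylglutathione hydrolase and the brightest, stood at -0.0026 (-0.19 to 0.19). The steps before and after the dehydrogenases, benzyl ester hydrolysis and benzoate conjugation, had 20 tested genes and a median of 0.040. Ces1d, a carboxylesterase, was the highest at 0.27 (-0.10 to 0.64). Glyatl1, a glycine N-acyltransferase-like enzyme, was the lowest at -0.74 (-1.08 to -0.39; adjusted p = 0.598 in limma), with separate groups. Slc22a6, the basolateral organic anion transporter and the brightest, differed by 0.19 (-0.0044 to 0.39), also with separate groups.

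**Figure D4:**
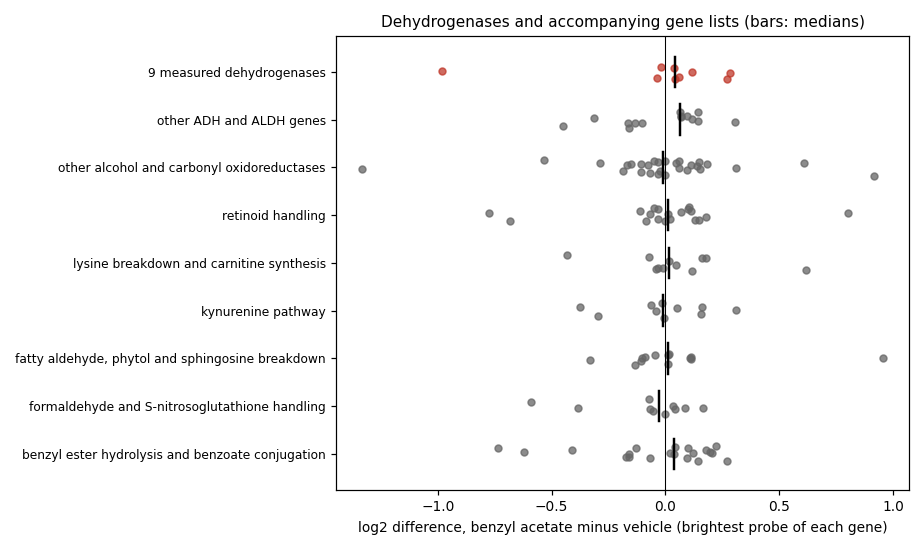
Log2 difference, benzyl acetate minus vehicle, of the brightest probe of each gene, for the 9 measured dehydrogenases (red) and for 8 accompanying lists (grey), with bars at the medians. The medians of the lists lie between -0.029 and 0.065, that of the dehydrogenases at 0.043, and Cryz is the point farthest to the left, at -1.33.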

How the data were processed

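Renal cortex RNA of 6 rats went on 1-colour Agilent arrays, and the 3 animals of a group are biological replicates, per the labels. The deposited scanner tables hold linear intensity values, and the submitters' processing notes name Agilent Feature Extraction 10.7. Per the file headers, the processed signal has its background subtracted and carries no scaling across arrays. Other columns, of flags coded 0 or 1, come from the same software, per the file headers. The authors' deposited value table holds intensity values equal to the processed signal scaled to each array's 75th percentile, within an SD of at most 0.000489 log2 on probes detected on all 6 arrays. It is linear and not centred, with column medians of 0.1148, 0.1118 and 0.1125 for benzyl acetate and 0.1102, 0.111 and 0.111 for vehicle.

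From log2 of the processed signal, each array's 75th percentile (taken over its 61537 non-control probes) was subtracted. Outlier spots were left out, none of them on the 18 dehydrogenase probes, and no spot was saturated. Scaling of this kind hides any change common to most transcripts. Probes well above background on all 3 arrays of a group entered, 42355 in all. Accessions were matched to a RefSeq table of GRCr8 for 28206 probes and 15645 symbols. The array grid names an older build, so no probe position is given. Both groups entered a limma 3.58.1 fit under R 4.3.3, by lmFit and eBayes, and p-values were adjusted by Benjamini-Hochberg across the tested probes (threshold 0.05). The fit was checked on simulated data.

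Members, lists and tests were chosen with earlier results of these data known. Every probe of a member is reported. Of each list, genes past the threshold, or otherwise those of highest and lowest difference and highest signal, were named, with the 3 genes nearest in profile to the member of largest difference. The result of 1 gene that this rule names is not reported here. The alternatives tried were a block for replicate number, a block for slide, normexp background correction (offset 50, on the median spot signal, since the tables give no mean), cyclic loess, quantile or median scaling, no filter or a stricter filter on dim probes, keeping flagged spots, a robust prior with a trend, the deposited value table, 1 probe or the mean of all probes per gene, and omission of each array in turn. The number of arrays limits the precision.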

Additional observations from a re-analysis of the deposited data

How the results depend on the processing

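No dehydrogenase probe passed in any of the 19 alternatives, the lowest adjusted p in limma being 0.333. Over all probes 2 passed with normexp, Cryz and a probe without a symbol, and 0 to 2 when 1 array was left out, the 2 being without benzyl acetate replicate 1. Of the list genes 1, Cryz, passed with normexp and 0 when any 1 array was left out. The median over the 9 dehydrogenases was 0.0062 to 0.0967 when 1 array was left out, lowest without vehicle replicate 1 and highest without vehicle replicate 2, and between these under the other settings. Of 18 probes 12 kept their direction throughout and 6 did not, in 17 of 324 values. Many of these values could not turn. The difference is left unchanged by the replicate block, the filters on dim probes, keeping flagged spots, the prior and 1 probe per gene. The slide block gives the same differences as leaving out vehicle replicate 1, so its reversals are counted again in the 17. With the slide as a block the Aldh1a1 probes stood at 0.0262 and -0.0205, the dimmer Aldh3a2 probe at -0.036 and the brighter Aldh9a1 probe at -0.0615. The dimmer Aldh1a1 probe was -0.0092 with normexp, -0.0124 with quantile normalization, -0.0278 with median scaling and -0.0134 with cyclic loess. With 1 array left out the Aldh1a1 probes ran from -0.045 to 0.0262 and from -0.0495 to 0.0473, the dimmer Aldh3a2 probe from -0.036 to 0.5309, the Aldh9a1 probes from -0.0615 to 0.1344 and from -0.0851 to 0.0204, and Aldh8a1 from -0.0697 to 0.0262. Fits with 1 array left out rest on fewer arrays, and the cause of the reversals was not tested. Replicate numbers did not pair the samples, with correlations of deviations of -0.111, -0.00447 and 0.00239, and with the replicate block 0 dehydrogenase probes passed and the median was 0.0429. Low signal limits both Aldh1b1 probes and the dimmer Aldh3a2 probe, at 62.5 to 962 and 94.7 to 218.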

Other observations

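Among the list genes, Gclc and Aadat ordered the animals much as the brighter Aldh1b1 probe did; they were compared with it after their values were seen. Gclc, the rate-limiting ligase of glutathione synthesis, had log2 signals of 5.56, 5.46 and 4.32 with benzyl acetate and 6.40, 6.64 and 4.07 with vehicle, and its second probe had 0.99, 0.95 and -0.40 with benzyl acetate and 1.97, 2.13 and -0.61 with vehicle. Aadat had 3.63, 3.73 and 3.08 with benzyl acetate and 4.38, 4.57 and 2.80 with vehicle. For both genes vehicle replicates 1 and 2 were the highest animals and vehicle replicate 3 the lowest, with benzyl acetate replicate 3 next to it. Distances from the centred Aldh1b1 profile were 0.49 and 0.47 log2 for the Gclc probes and 0.69 and 0.70 for the Aadat probes. The other 2 probes of Slco1a3 stood at 0.27 and 0.24. Not every gene of wide spread followed this order: Ephx2 stood at 1.27 and the Rbp4 probes at 2.35 and 2.33, and Rbp4 was highest in benzyl acetate replicate 2 at 4.93.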
